A study of Mus musculus with 12 samples.

Results

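Sphingolipid metabolism was described here through 37 genes that encode the enzymes making and degrading ceramide and its derivatives, the transporters that move these lipids, and the ORMDL proteins that restrain the pathway. The genes were chosen by symbol from a list, with no threshold on their values, and were 37 of the 32051 genes in an RNA-seq table of mouse Th9 cells. They fell into 10 genes of ceramide synthesis, 9 of complex sphingolipid synthesis, 10 of breakdown, 5 of sphingosine-1-phosphate (S1P) turnover and export, and 3 ORMDL genes. Of the 37, 32 had a mean of at least 0.1 FPKM (reads scaled to the exon length of the gene and the depth of the library) over all libraries and were tested among 13733 genes. The 5 below this minimum were *Ugt8a*, *B4galt6*, *Sphk1*, *Sgpp2*, and *Spns2*.

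The cells were naive splenic CD4+ T cells of C57BL/6J mice aged 6 to 8 weeks, and no genetic change was stated for any group. All 4 groups were polarized toward Th9, a helper T cell type that secretes IL-9, with IL-4, TGF-β, anti-IL-12, and anti-IFN-γ under anti-CD3 and anti-CD28 stimulation, and RNA was taken on day 4. The groups received the vehicle DMSO, EpA (a cyclic lipopeptide from an endophytic fungus, 10 μM), fatostatin (an inhibitor of the SREBP lipid transcription factors, 5 μM), or both, with doses as the study's methods give them. Each group had 3 libraries, and the study calls its Th9 samples independent, but neither the labels nor the methods stated whether they came from separate mice or cultures, so p-values measure only the spread between libraries, which may be technical. All cells were from an in vitro polarization without a separation of the cells that had become Th9 cells.

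Sphingolipids are membrane lipids built on a sphingoid base. Serine palmitoyltransferase starts the pathway in the endoplasmic reticulum, ceramide synthases and a desaturase produce ceramide, and ceramide is converted to sphingomyelin or to glycosphingolipids such as gangliosides in the Golgi. Sphingomyelinases, glycosidases, and ceramidases return these lipids to sphingosine, which kinases phosphorylate to S1P, a signal that guides the exit of T cells from lymphoid organs.

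The sequences before the start sites of 5 members are shown because these members had the 9 differences between groups that were kept under every alternative processing that tested them (22 alternatives for 8 of the differences and 21 for *Acer3*). The stretches were taken from RefSeq (GRCm38.p6) and end where the GENCODE gene begins, so they contain no transcribed bases of that gene model. They cover chr2:167349184-167349428 for *B4galt5*, chr12:75735730-75735979 for *Sgpp1*, chr11:98587369-98587495 for *Ormdl3*, chr12:98259460-98259709 for *Galc*, and chr7:98321209-98321458 for *Acer3*, all on the minus strand and written 5′ to 3′. Capitals mark matches to the GC box (GGGCGG) and the CCAAT box (CCAAT) on either strand, and GC box matches could overlap each other.
B4galt5: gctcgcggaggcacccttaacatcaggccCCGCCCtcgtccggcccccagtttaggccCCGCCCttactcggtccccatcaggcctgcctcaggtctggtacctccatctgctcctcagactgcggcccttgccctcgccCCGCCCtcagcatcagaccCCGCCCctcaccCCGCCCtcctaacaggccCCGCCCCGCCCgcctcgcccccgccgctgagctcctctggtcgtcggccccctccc
Sgpp1: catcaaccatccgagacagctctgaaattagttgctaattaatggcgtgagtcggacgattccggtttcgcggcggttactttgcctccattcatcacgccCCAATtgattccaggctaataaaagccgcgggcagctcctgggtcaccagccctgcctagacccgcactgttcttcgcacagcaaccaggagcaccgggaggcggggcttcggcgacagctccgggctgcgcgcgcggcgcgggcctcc
Ormdl3: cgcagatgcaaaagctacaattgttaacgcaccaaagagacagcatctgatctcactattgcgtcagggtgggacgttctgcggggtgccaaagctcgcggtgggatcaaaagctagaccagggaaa
Galc: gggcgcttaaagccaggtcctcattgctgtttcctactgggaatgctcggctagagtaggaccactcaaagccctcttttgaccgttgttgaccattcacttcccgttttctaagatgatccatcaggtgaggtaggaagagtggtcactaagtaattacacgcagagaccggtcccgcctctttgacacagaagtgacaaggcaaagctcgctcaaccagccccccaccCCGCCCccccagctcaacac
Acer3: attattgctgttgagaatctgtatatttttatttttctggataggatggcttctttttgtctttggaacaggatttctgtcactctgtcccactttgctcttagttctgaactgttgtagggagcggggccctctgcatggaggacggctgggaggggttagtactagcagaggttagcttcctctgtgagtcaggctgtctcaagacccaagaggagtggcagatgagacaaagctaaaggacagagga
The *B4galt5* stretch held 7 GC box matches, *Galc* held 1, and *Sgpp1* held 1 CCAAT box match. No match to the 4 motifs searched was found in the *Ormdl3* and *Acer3* stretches as printed. The whole *Ormdl3* window before its RefSeq start held 2 GC box matches in the bases that were trimmed, and *Acer3* has a second RefSeq start whose window held 3, so both count among the genes with a GC box below. Of the 37 members, 34 had a window of 250 bases before a RefSeq start that was used here. A gene was counted when any of its windows held a match, as some genes have several starts. The GC box was present in 27 of these 34, against 35.4% of 27025 genes in all, and the CCAAT box in 15, against 37.5%. The E-box CACGTG was present in 7 of the 34, against 6.86% of all genes, and the sterol element TCACNCCAC in 0 of 34, against 1.22%. By single window, the shares over 32851 windows were 32.7%, 33.8%, 6.02%, and 1.05%. The 27025 genes were not limited to those tested in these cells, and the shares among tested genes were not computed. A match describes letters only and is not evidence of binding.

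Depth was even, at 36607377 to 44375860 reads a library. These totals were worked back from the FPKM values rather than counted, and both mates of a pair may be included. The labelled cell type was checked on markers. Summed over 6 T cell markers, libraries held 480 to 567 FPKM, and over 7 Th9 markers 352 to 1190 FPKM, while 17 markers of other cell types came to 9.55 to 12.5 FPKM, with *Hbb-bs* at 0 in the DMSO libraries and *Ly6g* at 0 in the others. Most of that last sum was *Cd8b1* (7.6 ± 0.426 FPKM with DMSO and 7.47 ± 0.404 with EpA). With EpA 3 of the 8 tested markers of other cells passed (37.5%, against 27.4% of all tested genes). These were *Cd8a* at 1.81 ± 0.182 FPKM with DMSO and 0.802 ± 0.0328 with EpA, *Cd79a* at 0.791 ± 0.0687 and 0.489 ± 0.0865, and *Lyz2* at 0.0371 ± 0.0352 and 0.186 ± 0.0624. With fatostatin 1 passed (12.5%, against 14%). This was *Lyz2*, which was higher (0.2 ± 0.0438 FPKM), on 0 to 4 reads a library with DMSO and 8 to 13 with fatostatin. For both compounds against EpA 2 passed (25.0%, against 16%), *Cd8a* lower (0.491 ± 0.0767 FPKM with both) and *Cd79a* higher (0.869 ± 0.151). For both against fatostatin 1 passed (12.5%, against 29.5%), *Cd8a*, which was lower (1.52 ± 0.0807 FPKM with fatostatin). The part of these markers in the changes of members was not tested in any of the 4 comparisons. Of 17 SREBP targets, 11 were lower with fatostatin (64.7%, against 6.31% of all genes tested by limma at an adjusted p below 0.05) and 0 higher, and 7 were higher (41.2%, against 14.3%) and 3 lower (17.6%, against 13.1%) with EpA. For both compounds against EpA, 1 target was higher (5.88%, against 9.22%) and 7 lower (41.2%, against 6.79%). Against fatostatin, 11 were higher (64.7%, against 16.2%) and 2 lower (11.8%, against 13.3%). This list was chosen with earlier results of these data known and is no independent evidence.

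In DMSO-treated Th9 cells the pathway was expressed over a wide range, as the plot of levels by role shows. Over all 12 libraries, 27 of the 37 members reached 1 FPKM and 14 exceeded 10 FPKM. The median of the 32 tested members was 7.63 FPKM, against 5.0 FPKM over all tested genes. *B4galt5*, which makes lactosylceramide, was highest at 68.5 ± 0.925 FPKM (SD, n = 3 DMSO libraries). It was followed by the ceramide synthase *Cers2* at 48.9 ± 1.03 FPKM and by *Sptssa*, the small subunit of serine palmitoyltransferase, at 48.1 ± 2.34 FPKM. The levels of *Cers2* and *Sptssa* lay within their spread. The desaturase *Degs1* came next at 40.0 ± 1.03 FPKM and *Cers5* at 28.5 ± 0.731 FPKM.

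**Figure D1:**
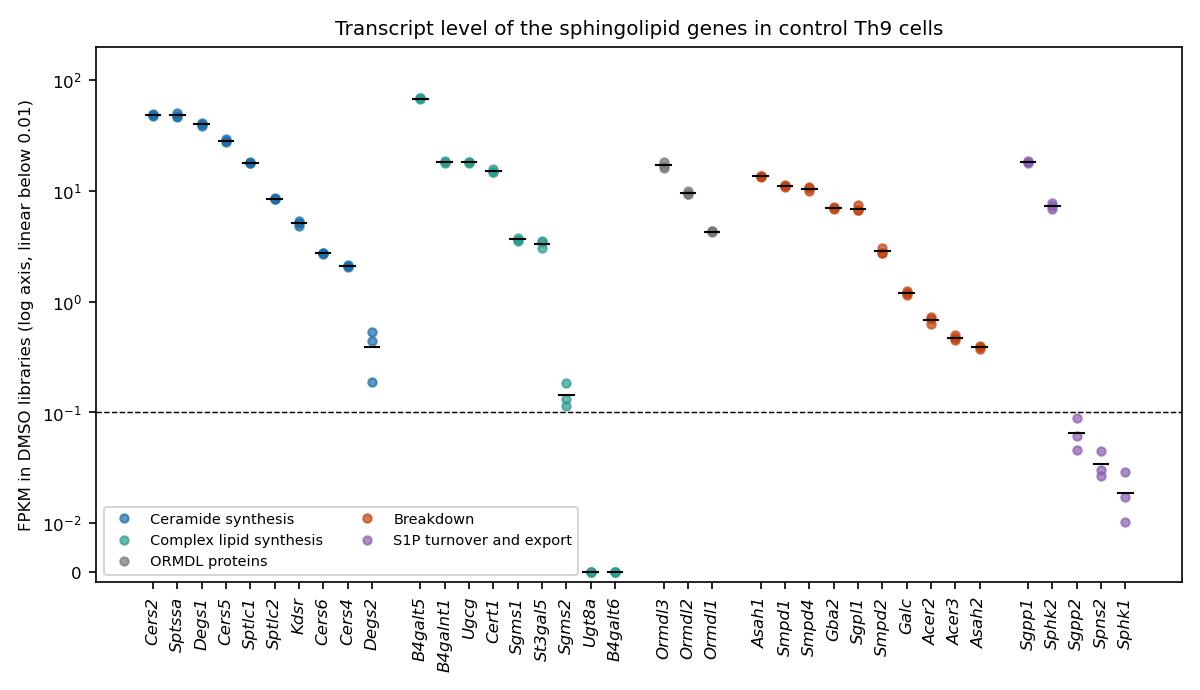
FPKM of the 37 sphingolipid genes in the 3 DMSO libraries (points) with their mean (bars), on a log axis that is linear below 0.01, ordered by level within each role. The dashed line marks the 0.1 FPKM minimum, which was applied to the mean over 12 libraries; *B4galt5* is highest at 68.5 FPKM and *Ugt8a* and *B4galt6* are listed at 0 in all 3 libraries.

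The roles differed in which paralogs were transcribed. Among ceramide synthases, *Cers2* and *Cers5* exceeded *Cers6* (2.74 ± 0.0358 FPKM) and *Cers4* (2.11 ± 0.052 FPKM). Of the sphingomyelin synthases, *Sgms1* was at 3.67 ± 0.123 FPKM and *Sgms2* at 0.143 ± 0.0368 FPKM. The highest breakdown gene was *Asah1*, the lysosomal acid ceramidase, at 13.6 ± 0.0961 FPKM, while the ceramidases *Acer2* (0.687 ± 0.045 FPKM), *Acer3* (0.474 ± 0.0238 FPKM), and *Asah2* (0.387 ± 0.011 FPKM) were below 1 FPKM. Of the sphingosine kinases, *Sphk2* was at 7.32 ± 0.428 FPKM, whereas *Sphk1* rested on 2 to 6 reads in the DMSO libraries. The S1P phosphatase *Sgpp1* was at 18.2 ± 0.393 FPKM, whereas its paralog *Sgpp2* was at 0.0653 ± 0.0217 FPKM, and the exporter *Spns2* rested on 4 to 8 reads. *Ugt8a*, which makes galactosylceramide, and *B4galt6* were listed at 0 in the 3 DMSO libraries.

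The study asked what EpA changes in Th9 cells, and whether blocking SREBP adds to it. The test was limma on log2(FPKM + 0.1) with an adjusted p below 0.05. With EpA, the breakdown genes *Acer3* and *Galc* rose and *B4galt5* fell. With fatostatin, *Sgpp1* and *Sgms1* rose and *B4galt5* and *Ormdl3* fell. All of these changes were under 1.5-fold. Of the 32 tested members, 12 passed in at least 1 of the 4 comparisons of groups (37.5%, against 43.9% of all tested genes) and 20 in none. In bulk RNA, fewer cells of a type and less RNA per cell cannot be told apart.

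EpA against DMSO gave 3 of 32 members (9.38%), 2 higher and 1 lower, against 27.4% of all tested genes (14.3% higher and 13.1% lower). None of the members exceeded 1.5-fold as well, against 3.38% of all genes. The median absolute log2 fold change was 0.061 over the members and 0.122 over all tested genes.

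Fatostatin against DMSO gave 4 of 32 members (12.5%), 2 higher and 2 lower, against a background of 14% (7.69% higher and 6.31% lower). No member exceeded 1.5-fold, against 1.86% of all genes. The median absolute log2 fold change was 0.084 for members and 0.091 for all genes, so the share and the size were both near the background.

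Fatostatin was also added on top of EpA. Both compounds against EpA gave 7 of 32 members (21.9%), 3 higher and 4 lower, against 16% of all genes (9.22% higher and 6.79% lower), and 0 members exceeded 1.5-fold, against 1.99%. EpA added on top of fatostatin gave 6 of 32 members (18.8%), 2 higher and 4 lower, against 29.5% of all genes (16.2% higher and 13.3% lower). Here *Degs2* and *Sgms2* exceeded 1.5-fold, against 3.75% of all genes. These comparisons share libraries with each other and with those above and are not independent.

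The effect of EpA did not pass the test of a difference with and without fatostatin for any member. The limma test of that difference called 0 of 32 members, against 0.0437% of all tested genes. At an unadjusted p below 0.05 there was 1 member, *Cers4*, whose EpA effect was higher by 0.21 in log2 units with fatostatin (limma adjusted p = 0.604). Over all genes, 1083 had an unadjusted p below 0.05.

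**Figure D2:**
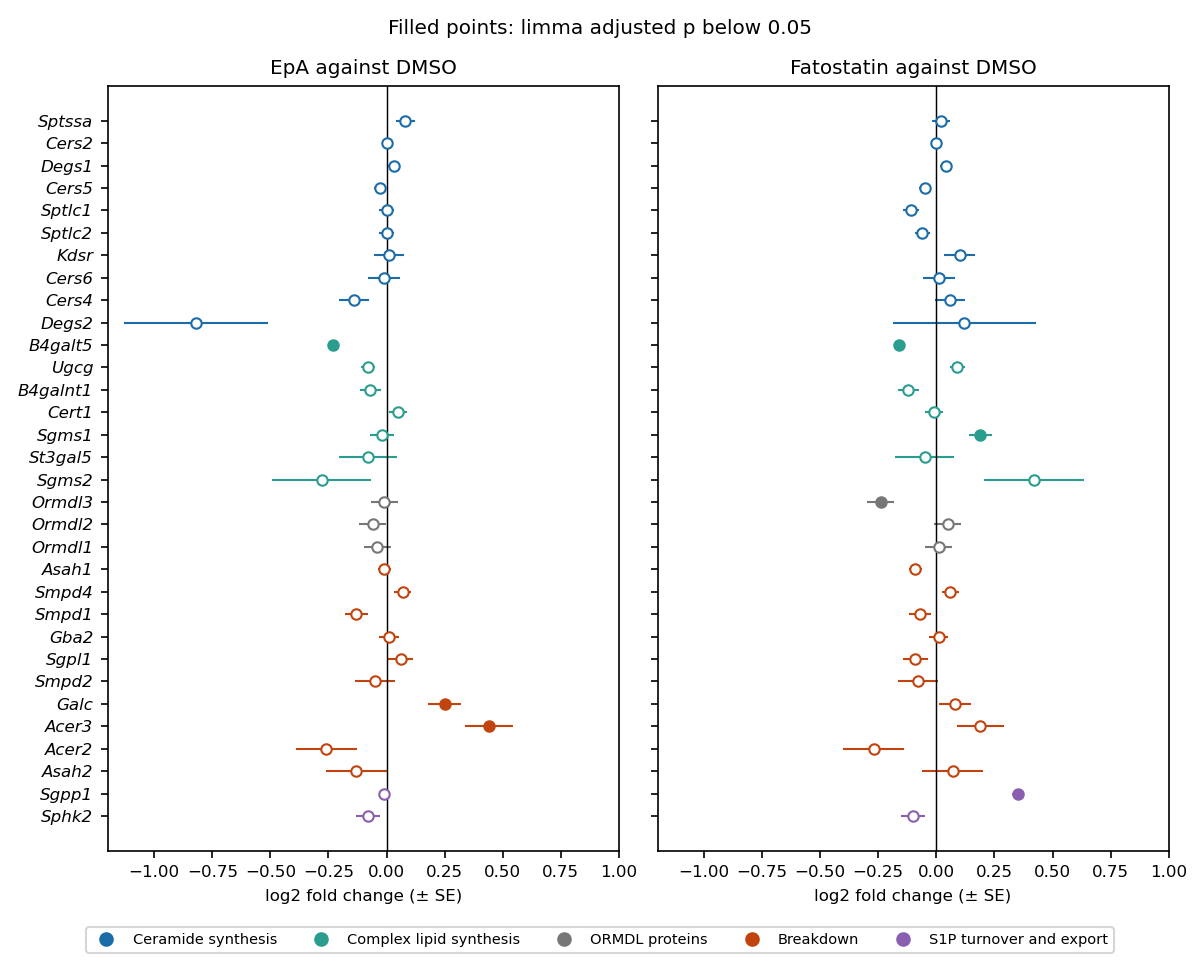
log2 fold change ± SE (horizontal axis) of the 32 tested members with EpA (left) and fatostatin (right) against DMSO, ordered by role and level, with filled points for limma adjusted p below 0.05. For EpA 3 members are filled, and for fatostatin 4, with *B4galt5* filled and below 0 in both; most members lie close to 0, and *Degs2* and *Sgms2* have the widest errors.

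Of the 10 ceramide synthesis genes, none passed with EpA (against 27.4% of all genes) or with fatostatin (against 14%) against DMSO in limma. With EpA 2 of the 10 had an unadjusted limma p below 0.05, against 5151 of all 13733 tested genes. With fatostatin it was 1 of the 10, against 3679 of the 13733. The median log2 fold changes of the 10 genes were -0.001 with EpA and 0.014 with fatostatin. For both compounds, 3 of 10 passed against EpA (30.0%, against 16%) and 2 of 10 against fatostatin (20.0%, against 29.5%), 1 of them past 1.5-fold. *Sptssa*, the highest of them over the 12 libraries, had 50.8, 46.4, and 47.2 FPKM with DMSO, 52.0, 49.3, and 51.3 with EpA, 47.4, 48.5, and 50.6 with fatostatin, and 48.5, 52.6, and 50.2 with both. The 4 groups overlapped. *Cers2*, which produces very-long-chain ceramides, had a 95% interval of -0.04 to 0.04 for its log2 fold change in each of the 4 comparisons. The subunit *Sptlc1*, the reductase *Kdsr*, *Cers6*, and *Degs1* passed in no comparison.

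The 3 ceramide synthesis genes that passed when fatostatin was added to EpA were *Cers4*, which was higher, and *Sptlc2* and *Cers5*, which were lower. *Cers4* had 2.07, 2.17, and 2.09 FPKM with DMSO, 1.88, 1.92, and 1.92 with EpA, 2.3, 2.05, and 2.28 with fatostatin, and 2.23, 2.49, and 2.25 with both. The EpA libraries were the lowest and the libraries with both compounds were above all of them. The difference between these groups was 0.27 in log2 units (SE 0.0644, limma adjusted p = 0.0139), and it was lost without the library EpA and fatostatin replicate 2 (adjusted p = 0.056). *Cers4* shares 7.22% of its exon bases with *Vmn2r-ps89* on the opposite strand, and the strand setting of the counting was not stated.

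*Sptlc2*, a catalytic subunit of serine palmitoyltransferase, fell from 8.55 ± 0.227 FPKM with EpA to 7.86 ± 0.197 FPKM with both compounds (a log2 difference of -0.12, SE 0.0319, limma adjusted p = 0.0242). *Cers5* fell from 27.9 ± 0.341 to 26.0 ± 0.557 FPKM in the same comparison (log2 fold change -0.10, adjusted p = 0.0202). It was also lower with both compounds than with fatostatin (27.4 ± 0.589 FPKM, log2 fold change -0.08, adjusted p = 0.0443). These are changes of 5.19% to 8.04%. The *Sptlc2* call was lost without EpA replicate 1 or 2 or without combination replicate 1 or 2 (adjusted p 0.0596 to 0.092). The *Cers5* call against EpA was lost without EpA replicate 1 or 3 or combination replicate 1 or 2 (0.0533 to 0.0742). The *Cers5* call against fatostatin was lost without DMSO replicate 1, any EpA replicate, fatostatin replicate 1 or 3, or combination replicate 1 or 2 (0.0539 to 0.138). Outside the libraries, the *Sptlc2* call was lost with only the groups compared (0.0802), and the *Cers5* call against fatostatin in 5 further alternatives (0.0562 to 0.0912), 13 of 22 in all.

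*Degs2*, a desaturase that also makes phytoceramides, had the widest error of the 32 tested members (SE 0.308). It had 0.19, 0.531, and 0.445 FPKM with DMSO, 0.165, 0.175, and 0.146 with EpA, 0.445, 0.282, and 0.516 with fatostatin, and 0.219, 0.214, and 0.0945 with both. The 3 EpA libraries were below every library without EpA, whereas 2 combination libraries were above DMSO replicate 1, all on 10 to 56 reads. With fatostatin present, EpA lowered it (log2 fold change -0.91, limma adjusted p = 0.0463), whereas against DMSO the value was -0.82 (adjusted p = 0.0702). The call was lost without DMSO replicate 3, any EpA replicate, fatostatin replicate 1 or 3, or any combination replicate (adjusted p 0.054 to 0.161). It was also lost with a pseudocount of 1 (0.0505), with all genes above 0 (0.0734), without the intensity trend (0.0553), with only the groups compared (0.0591), and with the replicate block (0.0726), 14 of 21 alternatives in all. *Degs2* shares 10.8% of its exon bases with *Evl* on the opposite strand.

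In complex sphingolipid synthesis, *B4galt5* was lower in all 4 comparisons. Its FPKM were 69.4, 68.6, and 67.5 with DMSO, 59.3, 57.9, and 57.6 with EpA, 61.8, 61.4, and 60.9 with fatostatin, and 51.6, 52.7, and 51.9 with both. The 4 groups did not overlap, with the order DMSO, fatostatin, EpA, and both from high to low. *B4galt5* lies at chr2:167298444-167349183 on the minus strand (ENSMUSG00000017929, GRCm38), encodes the galactosyltransferase that commits glucosylceramide to lactosylceramide, and was measured on 9165 to 12653 reads per library. With EpA its log2 difference was -0.23 (SE 0.0182, limma adjusted p = 4.14e-06) and -0.16 with fatostatin (SE 0.0182, adjusted p = 0.000144), or 14.9% and 10.4% lower. On top of the other compound, the log2 fold change was -0.24 for EpA (adjusted p = 3.07e-06) and -0.16 for fatostatin (adjusted p = 0.000114). In the presence and absence of fatostatin, the EpA effects differed by a log2 value between -0.06 and 0.05 (95% interval, adjusted p = 0.99). All 4 calls were kept in the 22 alternatives.

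The T cell markers were lower as a sum with EpA, and their fatostatin and DMSO libraries overlapped. Summed over 6 genes they were 558 to 567 FPKM with DMSO, 495 to 500 with EpA, 547 to 563 with fatostatin, and 480 to 485 with both, and their part in the *B4galt5* values was not tested. With EpA 5 of the 6 fell and *Cd4* rose (78.2 ± 0.147 to 86.8 ± 0.533 FPKM), so all passed (100%, against 27.4% of all tested genes). With fatostatin 2 rose, 1 fell, and 3 did not pass (50.0% passing, against 14%). For both compounds 2 of the 6 passed against EpA (33.3%, against 16%) and 5 against fatostatin (83.3%, against 29.5%). The 7 Th9 markers summed to 352 to 356 FPKM with DMSO, 929 to 964 with EpA, 369 to 378 with fatostatin, and 1130 to 1190 with both, and their part in the changes of members with EpA, with fatostatin, or with both was not tested. That sum followed *Il9* (54.6 ± 3.38 FPKM with DMSO and 640 ± 17.5 with EpA). Of the 6 tested Th9 markers 3 rose with EpA while *Irf4* and *Gata3* fell (83.3% passing, against 27.4%). With fatostatin 4 of the 6 passed (66.7%, against 14% of all tested genes), with *Il9* (66.5 ± 5.22 FPKM), *Il13*, and *Gata3* higher and *Il4* lower. For both compounds 5 of the 6 passed against EpA (83.3%, against 16%), 4 higher and *Batf* lower. Against fatostatin 5 passed (83.3%, against 29.5%), 4 higher and *Gata3* lower.

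The neighbors of *B4galt5* in the route to gangliosides were read alongside. *Ugcg*, which makes glucosylceramide one step earlier, was at 18.2 ± 0.0992 FPKM with DMSO, 17.2 ± 0.511 with EpA, 19.3 ± 0.852 with fatostatin, and 18.6 ± 0.162 with both. It passed only for both compounds against EpA (log2 fold change 0.11, SE 0.0319, limma adjusted p = 0.0407), a call lost in 12 of the 22 alternatives, 8 of them leaving out a library (any but the fatostatin libraries and EpA replicate 2, adjusted p 0.055 to 0.144). The sialyltransferase *St3gal5*, which makes the ganglioside GM3, and *B4galnt1*, which makes GM2, passed in no comparison. *St8sia1*, no member of the list, makes GD3 and had 12, 12.4, and 11.5 FPKM with DMSO, 9.12, 9.19, and 8.93 with EpA, 9.2, 8.41, and 8.29 with fatostatin, and 6.84, 6.82, and 6.49 with both. It was lower in all 4 comparisons (log2 fold changes -0.39, -0.47, -0.43, and -0.36, limma adjusted p 3e-05 to 0.000107), and the EpA and fatostatin libraries overlapped each other while lying between DMSO and both.

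The sphingomyelin synthases *Sgms1* and *Sgms2* passed in 1 comparison each. *Sgms1*, the Golgi enzyme, rose from 3.67 ± 0.123 FPKM with DMSO to 4.19 ± 0.128 FPKM with fatostatin (by 0.19 in log2 units, SE 0.0505, limma adjusted p = 0.0287). This call was lost without DMSO replicate 1 or 3 or fatostatin replicate 1 or 2 (adjusted p 0.0669 to 0.101), with only the groups compared (0.0602), and with the replicate block (0.052). *Sgms2*, found at the plasma membrane, had 0.132, 0.114, and 0.185 FPKM with DMSO, 0.121, 0.105, and 0.0759 with EpA, 0.214, 0.254, and 0.206 with fatostatin, and 0.125, 0.0541, and 0.094 with both. The fatostatin libraries were above all others. Against them, the libraries with both compounds were lower (log2 fold change -0.78, SE 0.215, limma adjusted p = 0.0177), while fatostatin against DMSO gave 0.42 (adjusted p = 0.24). These values rest on 14 to 63 reads, and the call was lost without fatostatin replicate 2 (adjusted p = 0.0619) or combination replicate 2 (0.0671). *Cert1*, which carries ceramide to the Golgi, passed in no comparison.

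Of the 10 breakdown genes, *Galc* and *Acer3* were higher with EpA (20.0%, against 14.3% of all tested genes higher and 27.4% passing in either direction), and the other 8 passed in no comparison, with 43.9% of all tested genes passing in at least 1 of the 4. *Galc*, the lysosomal galactosylceramidase (chr12:98202294-98259459, ENSMUSG00000021003), had 1.16, 1.26, and 1.21 FPKM with DMSO, 1.49, 1.37, and 1.54 with EpA, 1.35, 1.26, and 1.27 with fatostatin, and 1.71, 1.73, and 1.71 with both. Every library with EpA was above every library without it. In log2 units, *Galc* rose by 0.25 with EpA (SE 0.0699, limma adjusted p = 0.0193) and 0.38 when EpA was added to fatostatin (SE 0.0699, adjusted p = 0.00168). The former was lost without DMSO replicate 1 or 3 or EpA replicate 1 or 3 (adjusted p 0.0502 to 0.0746) and with only the groups compared (0.0669), and the latter was kept in all 22 alternatives. *Galc* shares 2.69% of its exon bases with *Gm47439* on the opposite strand.

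*Acer3*, the alkaline ceramidase of the endoplasmic reticulum and Golgi (chr7:98206389-98321208, ENSMUSG00000030760), had 0.501, 0.455, and 0.467 FPKM with DMSO, 0.668, 0.714, and 0.653 with EpA, 0.61, 0.555, and 0.506 with fatostatin, and 0.72, 0.763, and 0.707 with both. The libraries with EpA were again above all libraries without it, on 281 to 486 reads. In log2 units, *Acer3* rose by 0.44 with EpA (SE 0.103, limma adjusted p = 0.00826), kept in every alternative that tested it, and 0.34 on top of fatostatin (SE 0.103, adjusted p = 0.0281). The latter was lost without fatostatin replicate 2 or 3 or any combination replicate (adjusted p 0.0534 to 0.0983), with all genes above 0 (0.0626), and with only the groups compared (0.0844). *Asah1*, the highest breakdown gene, had 13.5, 13.6, and 13.7 FPKM with DMSO, 13.6, 13.3, and 13.8 with EpA, 12.5, 13.3, and 12.7 with fatostatin, and 13.2, 13.7, and 13.3 with both. Its fatostatin libraries were below its DMSO libraries (log2 fold change -0.09, limma adjusted p = 0.059). *Acer2*, a Golgi ceramidase, had log2 fold changes of -0.26 with EpA (adjusted p = 0.18) and -0.27 with fatostatin (adjusted p = 0.219). The sphingomyelinases *Smpd1*, *Smpd2*, and *Smpd4*, the glucosylceramidase *Gba2*, and the S1P lyase *Sgpl1* were among the genes that passed in none.

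Of the 2 tested genes of S1P turnover, *Sgpp1* rose with fatostatin. *Sgpp1* (chr12:75714249-75735729, ENSMUSG00000021054), which dephosphorylates S1P to sphingosine in the endoplasmic reticulum, had 18.4, 17.8, and 18.5 FPKM with DMSO, 18.1, 18.0, and 18.2 with EpA, 23.4, 22.6, and 23.7 with fatostatin, and 22.3, 22.3, and 21.9 with both. Every library with fatostatin was above every library without it. In log2 units, *Sgpp1* rose by 0.35 (SE 0.0247, limma adjusted p = 3.34e-06), or 27.3% higher, and 0.29 on top of EpA (SE 0.0247, adjusted p = 1.34e-05), and both calls were kept in the 22 alternatives. EpA alone gave a value of -0.01, with a 95% interval of -0.06 to 0.05. *Sphk2* passed in no comparison.

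*Ormdl3* was the ORMDL gene that passed. ORMDL proteins bind serine palmitoyltransferase and inhibit it when ceramide is abundant. *Ormdl3* (chr11:98581256-98587368, ENSMUSG00000038150) had 18.3, 16.3, and 16.9 FPKM with DMSO, 17.2, 17.0, and 16.9 with EpA, 15.0, 13.6, and 14.9 with fatostatin, and 13.8, 13.8, and 12.1 with both. All libraries with fatostatin were below all libraries without it. In log2 units, *Ormdl3* changed by -0.24 against DMSO (SE 0.0587, limma adjusted p = 0.0186) and -0.36 on top of EpA (SE 0.0587, adjusted p = 0.00154). The former was lost without DMSO replicate 1 (adjusted p = 0.0754) or fatostatin replicate 2 (0.0717), and the latter was kept in all 22 alternatives. *Ormdl1* (0.01) and *Ormdl2* (0.05) had log2 fold changes with fatostatin that did not pass, and whether they differed from *Ormdl3* was not tested.

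**Figure D3:**
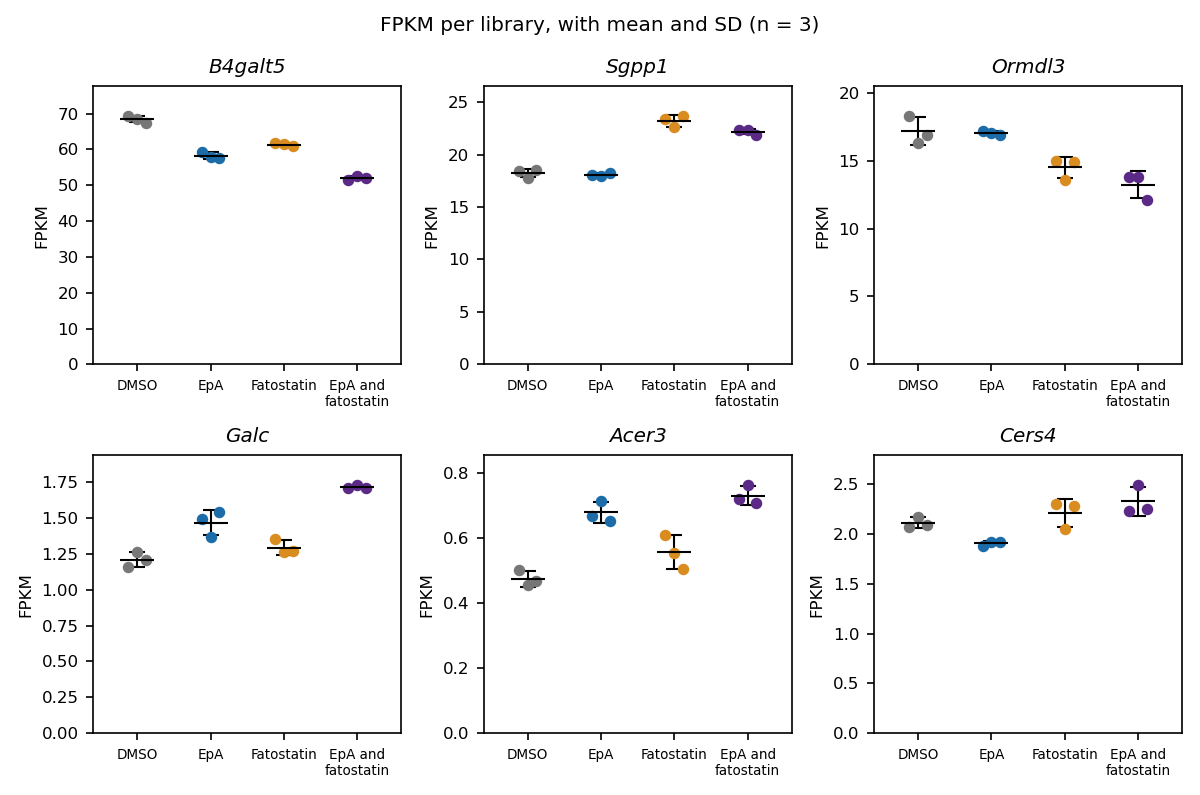
FPKM (vertical axes, from 0) of 6 members in the 3 libraries of each group (points), with mean and SD. *B4galt5* steps down from 68.5 to 52.1 FPKM with both compounds, *Sgpp1* and *Ormdl3* separate by fatostatin, and *Galc* and *Acer3* separate by EpA.

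Synthesis and breakdown genes were then compared as lists, as a description without a test. With EpA the median log2 fold change was -0.02 over the 17 tested synthesis genes and 0.002 over the 10 breakdown genes, a difference of -0.02. The difference was 0.04 with fatostatin, 0.06 for both compounds against EpA, and 0.02 for both against fatostatin. Within groups, the SD between libraries was 0.026 for the median synthesis minus the median breakdown log2 level, each gene relative to its mean. That is a spread of levels in single libraries, whereas the differences above are between fold changes of group means. No median difference among these 4 exceeded 0.06, and over the alternatives they ranged up to 0.08. By count, 1 synthesis gene (5.88%) and 2 breakdown genes (20.0%) passed with EpA, against 27.4% of all genes, and 2 (11.8%) and 0 with fatostatin, against 14%. For both compounds the counts were 5 (29.4%) and 0 against EpA, where 16% of all genes passed, and 4 (23.5%) and 2 (20.0%) against fatostatin, where 29.5% did.

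The mean over each list gave other values than the median. Synthesis minus breakdown, as means, was -0.12 with EpA, 0.05 with fatostatin, 0.05 for both compounds against EpA, and -0.12 for both against fatostatin, where the median difference had the opposite sign (0.02). Without *Degs2* and *Sgms2* these differences were -0.06, 0.02, 0.05, and -0.02. Relative to the DMSO mean, the mean log2 level of synthesis genes was -0.051 to 0.034 in the DMSO libraries, -0.114 to -0.076 with EpA, 0.011 to 0.041 with fatostatin, and -0.113 to -0.043 with both. The values of *Degs2* and *Sgms2*, the lowest tested synthesis genes, weighed in this mean. Without them, a choice made after their values were seen, it was -0.008 to 0.007 with DMSO, -0.04 to -0.02 with EpA, -0.013 to 0.006 with fatostatin, and -0.024 to -0.005 with both. The breakdown genes were at -0.01 to 0.007 with DMSO, 0.002 to 0.041 with EpA, -0.029 to -0.01 with fatostatin, and -0.02 to 0.012 with both.

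**Figure D4:**
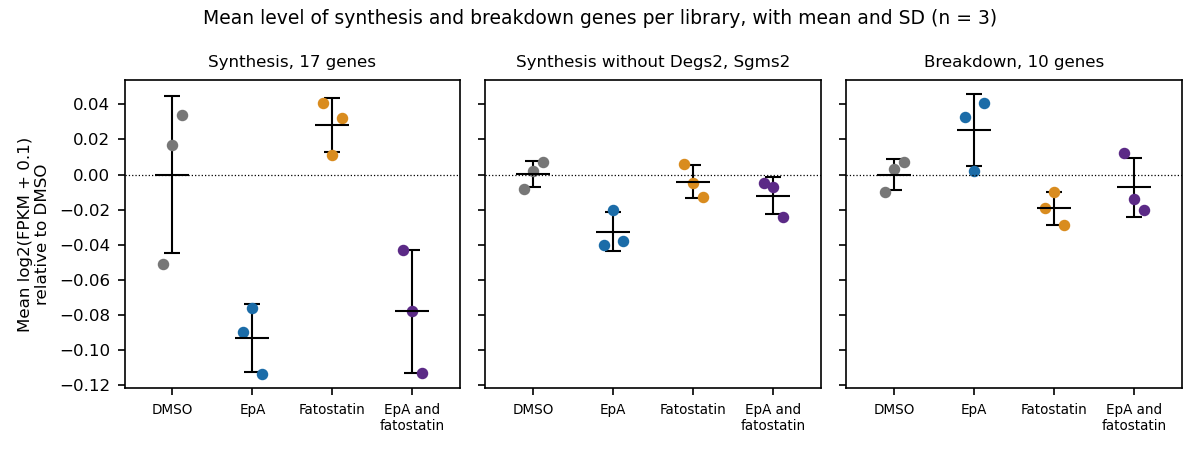
Mean log2(FPKM + 0.1) of the synthesis genes, of the synthesis genes without *Degs2* and *Sgms2*, and of the breakdown genes in each library (points), relative to the DMSO mean, with mean and SD of each group. The EpA libraries reach -0.114 for all synthesis genes and -0.04 once the 2 low genes are left out.

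A further list of 51 genes of the pathway (transporters, lysosomal hydrolases and their activators, S1P receptors, fatty acid elongation) was counted, of which 37 were tested. With EpA 16 passed (43.2%, against 27.4% of all genes), 8 higher and 8 lower, and with fatostatin 7 (18.9%, against 14%), 3 higher and 4 lower. For both compounds, 7 passed against EpA (18.9%, against 16%) and 21 against fatostatin (56.8%, against 29.5%), and 22 genes passed in at least 1 of the 4 comparisons (59.5%, against 43.9%). *Cerk*, which makes ceramide-1-phosphate, had 9.26, 9.52, and 9.43 FPKM with DMSO, 6.85, 6.64, and 6.86 with EpA, 9.47, 9.23, and 8.86 with fatostatin, and 6.64, 7.11, and 6.57 with both. It separated by EpA (a log2 difference of -0.47, SE 0.0379, limma adjusted p = 5.36e-06). The S1P receptor *S1pr3* rose from 0.916 ± 0.102 FPKM with DMSO to 1.9 ± 0.196 FPKM with EpA (log2 fold change 0.98, SE 0.115, adjusted p = 8.84e-05) and from 0.736 ± 0.0768 to 2.12 ± 0.202 FPKM when EpA was added to fatostatin (1.41). *S1pr2* rose as well (0.38 and 0.46), although the former call was lost without DMSO replicate 2 or EpA replicate 1 or 3 (adjusted p 0.0555 to 0.0777). The receptor *S1pr1* went the other way, from 24.3 ± 1.31 FPKM with DMSO to 22.2 ± 0.654 with EpA (log2 fold change -0.13, limma adjusted p = 0.0265). On top of fatostatin *S1pr1* changed by -0.15 (adjusted p = 0.0116). Its first call was lost in 5 of 22 alternatives and its second was kept in all.

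Genes outside the member list that passed with fatostatin included *Cptp*, which transports ceramide-1-phosphate and was higher (log2 fold changes 0.37 and, on top of EpA, 0.39), and *Aldh3a2*, which oxidizes the fatty aldehyde released from S1P and was lower (-0.44 and -0.33). *Smpdl3b*, a membrane phosphodiesterase related to acid sphingomyelinase, was higher with fatostatin (0.56 and 0.56). Its calls with EpA (0.34 and, on top of fatostatin, 0.35) were lost without any of 9 and of 7 libraries (adjusted p 0.051 to 0.167 and 0.0522 to 0.128), among them EpA replicates 2 and 3, all combination replicates, and DMSO replicate 2. Both calls were also lost with the replicate block (0.0636 and 0.0565), without the intensity trend (0.0683 and 0.0611), and with all genes above 0 (0.0781 and 0.0691). In all they were lost in 13 and 11 of 22 alternatives. *Gm2a*, the activator of ganglioside hydrolysis, was lower with EpA (-0.27 and -0.29). The sphingomyelin synthase relative *Samd8* (0.33) and the galactosidase *Gla* (0.28) were higher, and the sphingomyelinase *Smpd5* (-0.35) lower, when EpA was added to fatostatin. Of these 3, *Smpd5* lost its call without fatostatin replicate 2 or 3, combination replicate 1 or 3, DMSO replicate 3, or EpA replicate 1 (adjusted p 0.0506 to 0.146), and it shares 13.8% of its exon bases with *Oplah* on the opposite strand.

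**Figure D5:**
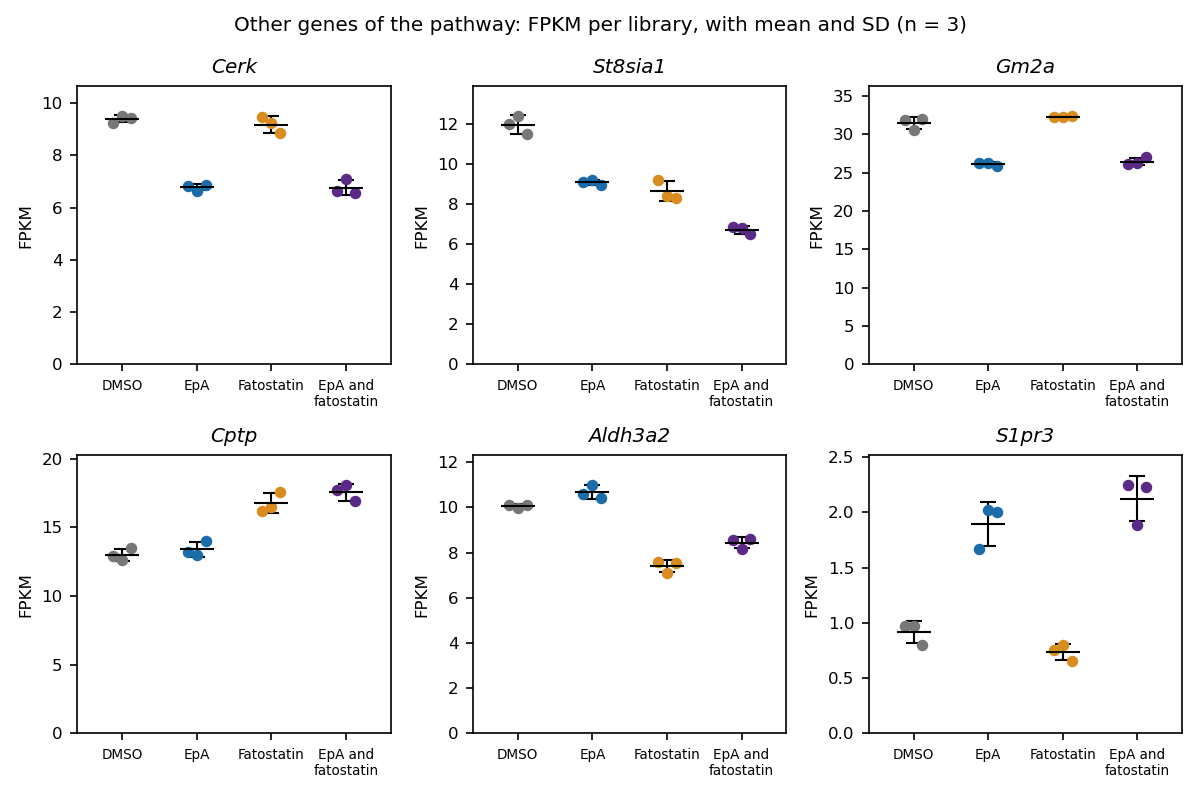
FPKM (vertical axes, from 0) of 6 genes of the pathway outside the member list in the 3 libraries of each group (points), with mean and SD. *Cerk* and *Gm2a* are lower and *S1pr3* higher in the libraries with EpA, *Cptp* is higher and *Aldh3a2* lower with fatostatin, and *St8sia1* falls from 12 to 6.72 FPKM with both.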

How the data were processed

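RNA-seq was measured in 12 libraries, 3 in each of 4 groups named by the labels. Per the methods, the authors used Trim Galore for trimming of paired reads, HISAT2 for alignment (GRCm38), and featureCounts for gene counts, and deposited FPKM values, which scale those counts to length and depth. The annotation and strand setting were not given in the sources used here. The table held 32352 lines for 32051 genes, and the 301 repeat lines were identical. With GENCODE M21 exon lengths, 98.2% to 98.4% of values were whole reads (within 0.05, up to 500 reads). More genes had 2 reads (1032 to 1138) than 1 (447 to 548), so both mates may have been counted.

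Values were fitted as log2(FPKM + 0.1) in R 4.3.3 with limma 3.58.1 (4 group means, intensity trend, two-sided p, Benjamini-Hochberg over 13733 genes whose mean reached 0.1 FPKM). Fold changes of low genes are understated on this scale. An exact permutation test of 3 against 3 cannot go below 0.1 and was not used. The authors used DESeq2 on counts, which was not run here. Alternatives used a pseudocount of 1 or 0.01, other minimums, TPM or median ratio scaling, no trend, fewer groups, the replicate number, voom on recovered reads, or left out each library. Only the limma fit was run on simulated reads, with 1.5-fold changes in genes of at least 1 FPKM. That simulation did not cover the smaller changes or the lower genes described here. Members, gene lists, and tests were chosen with earlier results of these data known. Per-library values were given for members with an adjusted p below 0.05 and a change of at least 1.2-fold in any comparison of groups, and for the highest member of each role. Other members were given by group means or counts, and other pathway genes were named by the same thresholds. *S1pr1*, which changed by less than 1.2-fold, was added beside the other S1P receptors. Trac and Trbc1 were not used here. Deviations from the group means were nearly uncorrelated between libraries (-0.047 to 0.074 for same-numbered and -0.086 to 0.049 for other pairs). This cannot show whether same-numbered libraries shared a mouse or culture.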

Additional observations from a re-analysis of the deposited data

How the results depend on the processing

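Of 20 calls on members, 9 were kept in every alternative that tested them (22 for 8 calls and 21 for *Acer3* with EpA, 12 of them leaving out a library), 11 were lost in some, and 0 were reversed. No scaling moved the median of all genes by over 0.1. The members passing with EpA were 1 higher at a minimum of 1 FPKM, 1 higher and 2 lower with only the groups compared, and 2 lower with voom on recovered reads. With fatostatin they were 1 higher with only the groups compared or with the replicate block, and 4 lower with median ratio scaling. For both compounds against fatostatin they were 1 higher and 2 lower with all genes above 0 or with only the groups compared, and 2 lower at a minimum of 1 FPKM or without the intensity trend. The replicate block lost the calls on *Sgms1* (adjusted p = 0.052) and *Degs2* (0.0726) and no other call on a member. Leaving out each library gave, higher and lower, 1 to 2 and 1 to 2 with EpA, 1 to 2 and 1 to 3 with fatostatin, 1 to 3 and 2 to 5 for both against EpA, 1 to 3 and 1 to 4 for both against fatostatin, and 0 to 0 for the difference of the EpA effects.

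Synthesis minus breakdown was 0.07 with fatostatin at a minimum of 1 FPKM and 0.08 with the sphingosine kinases added to breakdown, 0.02 for both against EpA with all genes above 0, and -0.02 for both against fatostatin at a minimum of 1 FPKM. Leaving out each library gave -0.04 to -0.01 (EpA), 0.02 to 0.04 (fatostatin), 0.02 to 0.08 (both against EpA), -0.02 to 0.03 (both against fatostatin), and -0.01 to 0.06 (difference of the EpA effects). Why these values moved was not tested beyond the genes or libraries each alternative removes. Members under 0.1 FPKM were not compared at this depth.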
